A study of Mus musculus with 4 samples.

Results

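The killer cell lectin-like receptors were taken as every gene name starting Klr or Ly49, and 23 of the 16152 names in the deposited matrices met that rule. Of these, 10 belong to the Ly49 family (6 names starting Ly49 and 4 starting Klra), 3 start with Klrb and 10 start with another Klr letter. Levels and positive cells were measured by single-cell RNA-seq of blood mononuclear cells in an acute pancreatitis (AP) series of 4 libraries. The cells are recorded as from C57BL/6J wild-type mice aged 6 to 8 weeks. The AP libraries were taken 12 h and 24 h (initial phase) and 96 h (recovery) after 7 intraperitoneal injections of cerulein, which the design text writes as 60 mg/kg, and a control library stands at 0 h. The labels give the last library as 96 h, while the design text gives 168 h for that stage, and the number of animals in each library is not given in the sources used here. With 1 library per time there is no spread between animals: every interval below is a 95% interval of counting error alone, and no difference was tested. Intervals of levels and ratios take UMIs as independent and leave out the spread between cells.

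Killer cell lectin-like receptors are surface proteins by which natural killer (NK) cells and some T cells read class I and class I-like molecules on other cells. Inhibitory members recruit phosphatases such as Ptpn6 (SHP-1), and activating members signal through the adaptors Tyrobp (DAP12) or Hcst (DAP10). The Ly49 family is a cluster of close paralogues in rodents, in which single NK cells express different combinations. Their sequences are alike, so reads may be shared or split among the Ly49 names, and the level of any 1 of these names is less certain than their sum.

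The names are written in rat style: 28 names start with RT1- (the rat class I and II region) and 0 with H2- (the mouse one), although the labels give mouse and the submitters' processing notes name mm10. Ly49si1, Ly49s4 to Ly49s7 and Ly49i4 are rat names, in which i stands for inhibitory, s for stimulatory and si for motifs of both kinds. The names and the labels thus differ in organism, and which of them holds for these libraries was not tested. Gene names are therefore given as the files give them, and roles are background from rat or mouse as named. No sequence is printed, because the reference at hand is a mouse one. The deposited barcode list of the 24 h library is the same as that of the 12 h library (11663 barcodes for 12588 cells), and that of the control library has 4340 lines for 14569 cells, so cells were taken as matrix columns. The other pairs of lists share 10 to 51 barcodes.

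NK cells were gated on markers other than the receptors: at least 3 UMIs (unique molecular identifiers) summed over Ncr1, Nkg7, Prf1, Gzma, Gzmb, Ctsw, Il2rb and Eomes, with no UMI of the T-cell receptor complex genes Cd3d, Cd3e and Cd3g. The gate held 343 of 11410 cells in the control library, 728 of 10464 at 12 h, 408 of 10908 at 24 h and 487 of 12929 at 96 h, with a median of 4741, 4190, 5854 and 5420 UMIs per cell. All 8 marker genes had UMIs in the NK-gated cells of every library, with a summed level of 10783 to 12781 counts per 1000000 UMIs of the gate (CPM). Cd8a stood at 962, 700, 838 and 829 CPM in NK-gated cells of the control, 12 h, 24 h and 96 h libraries, while Cd8b had 1 to 9 UMIs in each. Rat NK cells carry the CD8 alpha chain, and mouse NK cells are known to lack it. Summed neutrophil markers (S100a8, S100a9, Csf3r, Mmp9, Cxcr2 and Camp) stood at 28.7, 2400, 1925 and 809 CPM in the same cells, against 19.3, 5454, 3544 and 367 in B-gated cells. They moved with time in both gates, and their part in the results below was not tested.

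NK-gated cells carried 36.0%, 47.3%, 39.4% and 38.3% of all receptor UMIs in the control, 12 h, 24 h and 96 h libraries, from 3.01%, 6.96%, 3.74% and 3.77% of the cells. The 23 names together stood at 5215, 5536, 5021 and 5099 CPM. That sum was 21.6 times the level in T-gated cells of the control library (interval 20.8 to 22.5), and 13.8, 17.5 and 15.2 times at 12 h, 24 h and 96 h. Over B-gated cells, the ratios were 46.3 to 52.3. Of the 23 names, 20 had at least 50 UMIs in NK-gated or T-gated cells over the 4 libraries and are described here. Klrg2, Klrb1 and Klrh1 did not: in NK-gated cells Klrg2 had 0 UMIs, Klrb1 had 0 to 4 and Klrh1 had 0 to 5 per library.

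**Figure D1:**
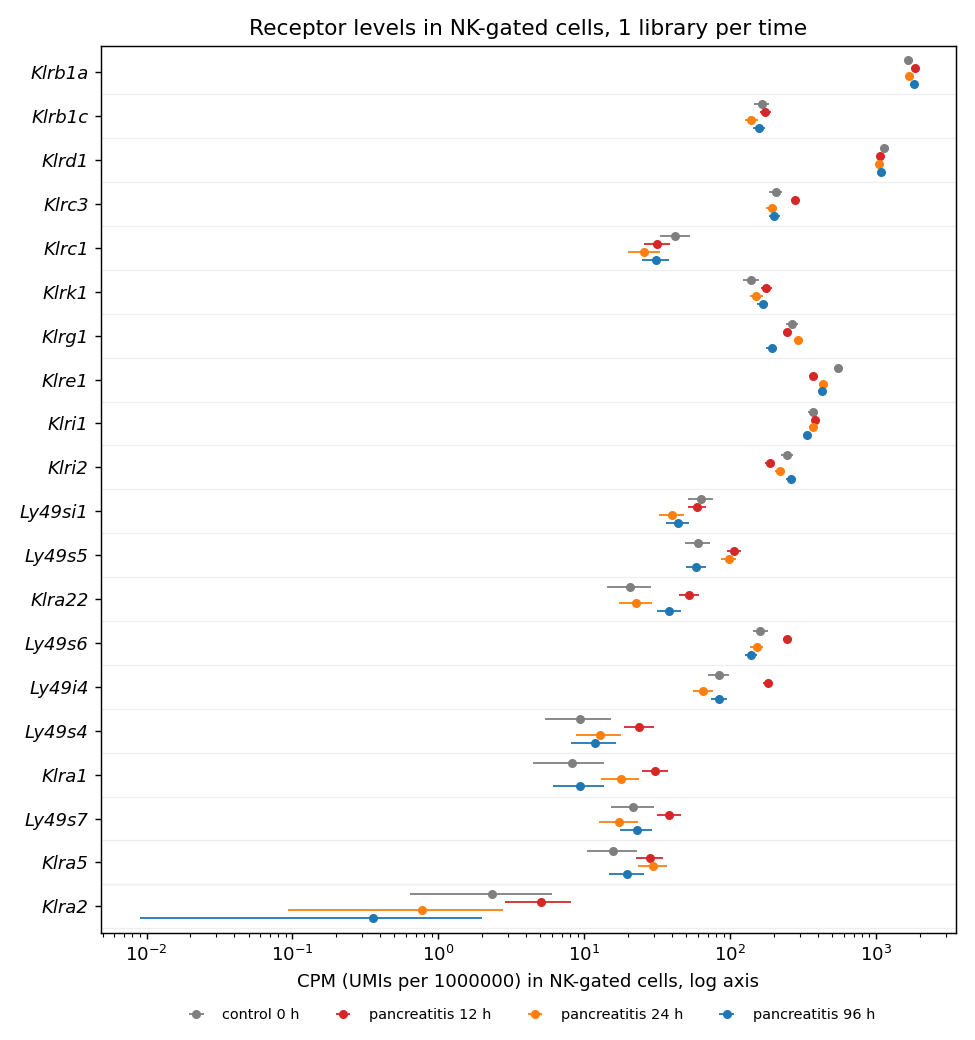
Level of each of the 20 described receptors in NK-gated cells, in CPM on a log axis, with 1 point per library and its 95% Poisson interval. Klrb1a and Klrd1 lie highest in every library, and the 12 h points of the lower rows (Ly49s5 to Klra5) lie to the right of the control points.

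Klrb1a, which encodes the activating receptor NKR-P1A in rat, was the highest member. It stood at 1652, 1848, 1688 and 1820 CPM in NK-gated cells of the control, 12 h, 24 h and 96 h libraries and was detected in 98.8% to 100% of these cells. The library ratios to control were 1.12, 1.02 and 1.10 at 12 h, 24 h and 96 h, so the level was close to the same at every time. Klrb1c, known in mouse as NK1.1, was detected in 51.1% to 55.9% of NK-gated cells, at 164, 174, 140 and 159 CPM.

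The CD94/NKG2 group followed. Klrd1 (CD94), the shared chain that pairs with the NKG2 proteins, stood at 1137, 1068, 1053 and 1083 CPM in the control, 12 h, 24 h and 96 h libraries and was found in 97.0% to 98.5% of NK-gated cells. Its NKG2 partners were lower. Klrc3 (NKG2E) stood at 205, 278, 193 and 200 CPM, with its highest value at 12 h (ratio to control 1.35, interval 1.19 to 1.53). Klrc1, the inhibitory NKG2A chain, stood at 42.1, 31.6, 25.8 and 31.1 CPM and was detected in 11.4% to 16.6% of NK-gated cells. All 3 AP libraries were below control for Klrc1, with a ratio of 0.612 at 24 h (interval 0.432 to 0.866), and the intervals at 12 h and 96 h included 1.

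Klrk1 (NKG2D), an activating receptor for stress-induced class I-like ligands, stood at 139, 177, 151 and 166 CPM. Klrg1, an inhibitory receptor for cadherins found on mature NK and effector T cells, stood at 265, 246, 294 and 192 CPM. It was detected in 66.5%, 57.1%, 71.1% and 53.8% of NK-gated cells. In cells thinned to 2000 UMIs each, these were 124 of 342, 264 of 717, 175 of 405 and 152 of 483. The control and 12 h shares were then close. The 96 h library was the lowest for Klrg1, with a ratio of 0.726 (interval 0.640 to 0.825). That library also had the smallest share of NK-gated cells with at least 3 UMIs of Gzma (granzyme A), at 48.9%, against 70.0% in the control library, 63.2% at 12 h and 75.2% at 24 h. Klrg1 was lower in NK-gated cells with at most 1 UMI of Gzma than in those with at least 3 in every library, with ratios of 0.362, 0.406, 0.378 and 0.312 at 0 h, 12 h, 24 h and 96 h. The part of this split in the 96 h value was not tested.

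Klre1 is known from rat to form heterodimers with Klri1 (inhibitory) or Klri2 (activating). It stood at 552, 367, 433 and 423 CPM in NK-gated cells of the control, 12 h, 24 h and 96 h libraries and was found in 87.5%, 75.6%, 86.8% and 83.8% of them. All 3 AP libraries lay below control, with ratios of 0.665 (interval 0.610 to 0.725), 0.784 and 0.766. Klri1 held nearly the same level, at 368, 383, 367 and 335 CPM. Klri2 stood at 246, 187, 220 and 260 CPM, with a ratio of 0.758 at 12 h (interval 0.668 to 0.861).

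The Ly49 family stood apart at 12 h. Its 10 names summed to 445, 773, 455 and 428 CPM in NK-gated cells of the control, 12 h, 24 h and 96 h libraries. The 12 h library was the highest, with a ratio to control of 1.74 (interval 1.60 to 1.89), while the other 2 ratios were 1.02 and 0.961. The 13 names outside the family had ratios of 0.998, 0.957 and 0.979. Ly49s6 was the highest name, at 161, 247, 151 and 139 CPM, in 30.6%, 33.7%, 38.7% and 28.3% of cells. In cells thinned to 2000 UMIs each, it was found in 65 of 342, 176 of 717, 81 of 405 and 81 of 483. The largest share was then at 12 h.

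Ly49i4, named as an inhibitory receptor, stood at 83.1, 182, 65.5 and 84.3 CPM and was detected in 8.75%, 23.2%, 12.3% and 13.6% of NK-gated cells of the control, 12 h, 24 h and 96 h libraries. The 12 h library was the highest by both measures. Its ratio to control was 2.19 (interval 1.82 to 2.65). After each cell was thinned to 2000 UMIs, to even out depth, the share of cells with Ly49i4 was again highest at 12 h: 5.26%, 17.0%, 7.16% and 9.52%. In B-gated cells, which should lack the receptor, Ly49i4 was found in 0.179% to 0.618%.

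At 12 h, 8 of the 19 members with at least 50 UMIs over both libraries were at least 1.5-fold higher than control in NK-gated cells, and 7.95% of all 6292 genes counted were. All 8 were Ly49 family names, out of 9 of that family counted: Ly49s5, Klra22, Ly49s6, Ly49i4, Ly49s4, Klra1, Ly49s7 and Klra5. Their ratios ran from 1.53 (Ly49s6) to 3.75 (Klra1, 98 UMIs at 12 h against 14 in control). Ly49si1 was the ninth, with a ratio of 0.945. In the other direction, Klre1 alone was at least 1.5-fold lower, beside 2.92% of all genes. The median log2 ratio was 0.84 over the 9 Ly49 names and -0.01 over the 10 other members, beside 0.06 over all genes counted. The minimum of 50 UMIs is taken over both libraries, so a name with few control UMIs, such as Klra1, is counted through the 12 h library. The count of 8 and the median of 0.84 can therefore lean towards higher names.

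At 24 h, 3 of 18 members were at least 1.5-fold higher (Ly49s5, Klra1 and Klra5), beside 6.75% of all genes, and 2 were lower (Klrc1 and Ly49si1), beside 4.84%. At 96 h, Klra22 was the 1 member of 17 that was higher, with 38.2 CPM against 20.5 in control (ratio 1.87, interval 1.26 to 2.82), beside 5.93% of all genes. No member was at least 1.5-fold lower at 96 h, beside 3% of all genes.

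**Figure D2:**
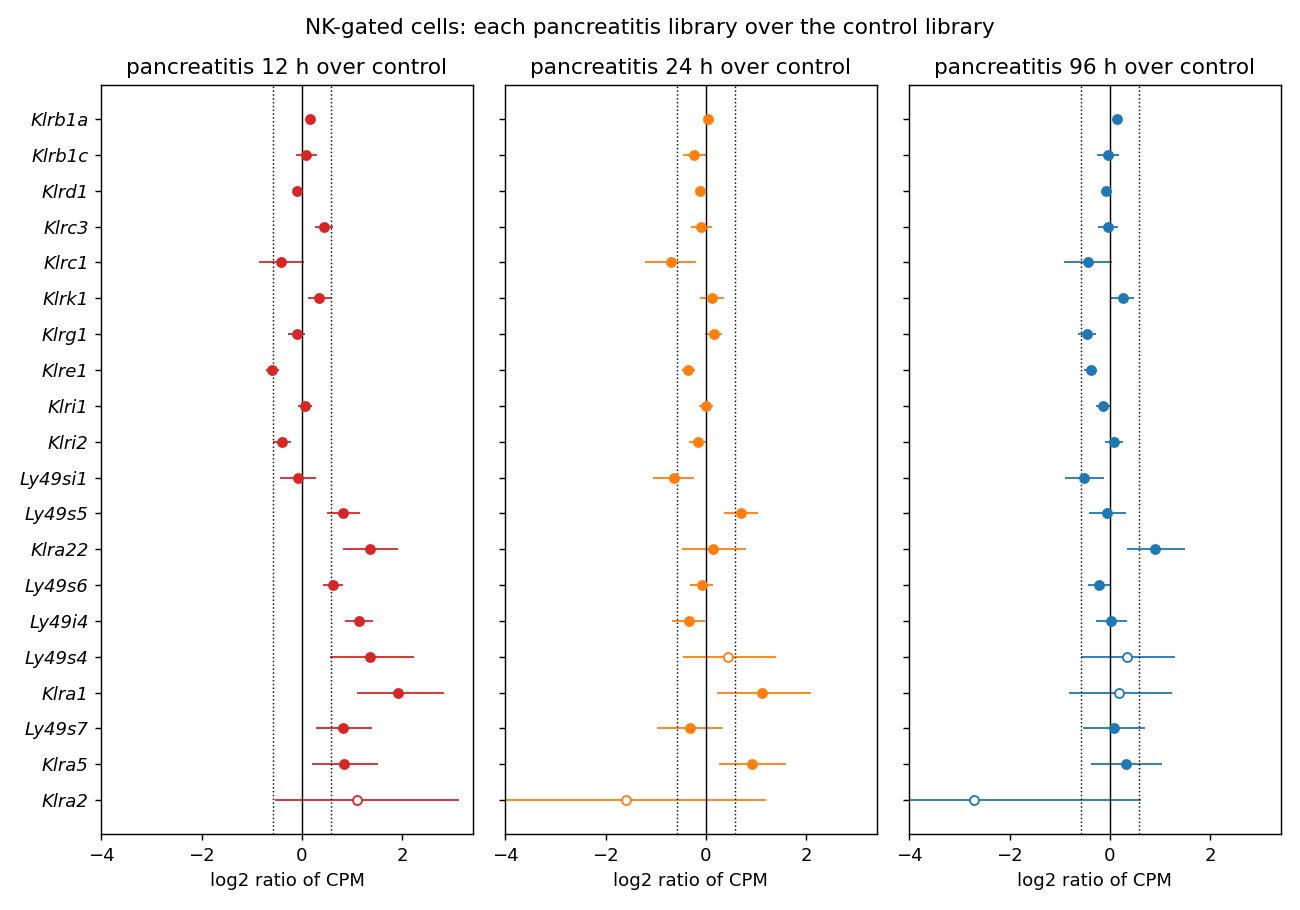
Log2 ratio of each AP library to the control library in NK-gated cells, with 95% counting intervals. Dotted lines mark 1.5-fold, open points have fewer than 50 UMIs over both libraries, and the intervals of Klra2 run past the left edge at 24 h and 96 h. At 12 h, 8 of the 9 counted Ly49 family names lie right of the upper line, and at 96 h only Klra22 does.

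By summed level, the 12 h difference in the Ly49 family was larger in NK-gated cells with little granzyme A. In cells with at most 1 UMI of Gzma, the summed family stood at 1110.3 CPM at 12 h against 456 in control (ratio 2.43, interval 2.10 to 2.84). In cells with at least 3 UMIs, the values were 538 at 12 h and 440 in control (ratio 1.22, interval 1.10 to 1.36). The intervals of the 2 ratios do not overlap, but they take UMIs as independent. In control cells low in Gzma, the family's UMIs came from 35 of 86 cells. After thinning, a family name was found in 33.7% of these control cells (interval 23.9% to 44.7%). At 12 h the share in cells low in Gzma was 45.8% (39.6% to 52.2%), and the 2 intervals overlap. The difference between the Gzma subsets was not tested. Ly49i4 had ratios of 3.21 and 1.65 in these subsets. Klra22 stood at 110 CPM at 12 h and 31.8 in control where Gzma was low, and at 15.0 and 14.5 where it was high. When every NK-gated cell had also to hold a UMI of Ncr1 (NKp46, a defining NK receptor), 499 cells stayed at 12 h and 225 in control. In these, the summed family had a ratio of 1.55 at 12 h. Ly49i4 then had a ratio of 1.49 at 12 h (interval 1.21 to 1.84), and of 0.501 and 0.566 at 24 h and 96 h. These splits were chosen with the values in view.

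Single NK-gated cells, thinned to 2000 UMIs, held a median of 5 of the 23 names in each library. No Ly49 family name was detected in 67.8%, 61.5%, 63.2% and 70.6% of cells of the control, 12 h, 24 h and 96 h libraries. At least 3 were detected in 7.31% of control cells (interval 4.79% to 10.6%), 14.1% at 12 h (11.6% to 16.9%), 8.64% at 24 h and 6.63% at 96 h. The 12 h library thus held the largest share of cells with several Ly49 names, and its interval does not overlap that of the control library.

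**Figure D3:**
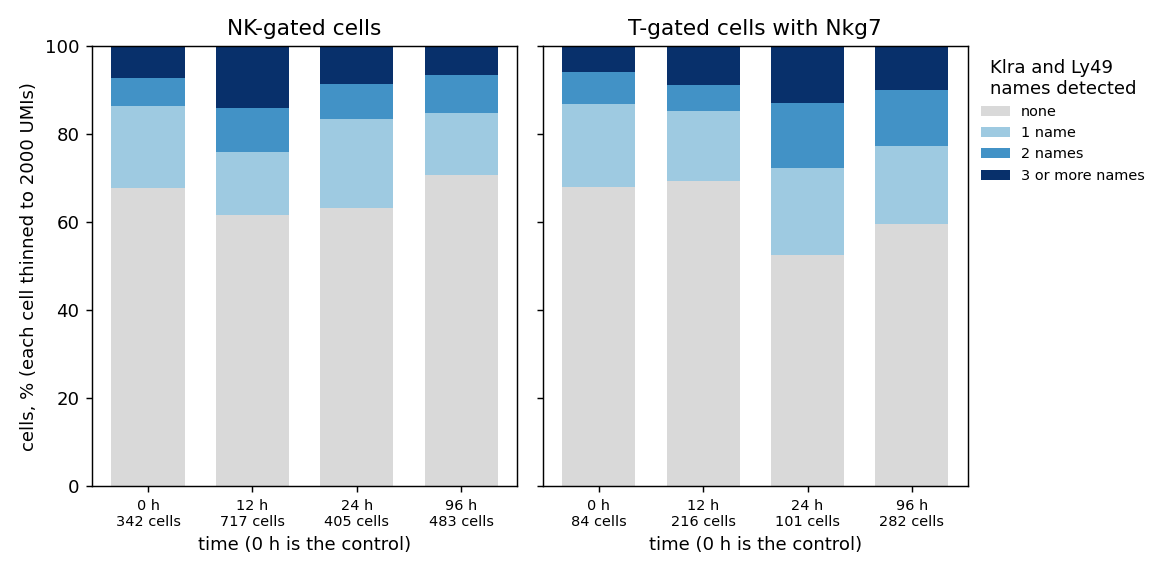
Share of cells (%) in which 0, 1, 2 or at least 3 Ly49 family names were detected, after thinning to 2000 UMIs, for NK-gated cells (left) and for T-gated cells with at least 2 UMIs of Nkg7 (right). The share with 3 or more names was 14.1% of NK-gated cells at 12 h and 12.9% of the T-gated cells at 24 h.

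Cells with 1 Ly49 name often held another. In thinned NK-gated cells with Ly49s6, Ly49i4 was detected in 13 of 65 cells of the control library and in 47.7%, 23.5% and 32.1% at 12 h, 24 h and 96 h, against 1.81%, 7.02%, 3.09% and 4.98% of cells without Ly49s6. Ly49s5 was found in 23.1%, 32.4%, 27.2% and 21.0% of cells with Ly49s6, against 7.22%, 7.95%, 10.5% and 6.47% of cells without it. The intervals of each pair of shares did not overlap for Ly49i4 in any library. The part of reads shared between paralogues in these values was not tested.

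The pair of Klre1 partners split by Ly49. In thinned NK-gated cells with a Ly49 name, Klri1 was detected in 40.9%, 33.7%, 30.2% and 30.3% (control, 12 h, 24 h and 96 h). In thinned cells without one, the shares were 50.4%, 54.9%, 52.3% and 47.8%. Klri2 showed the opposite, with 32.7%, 30.4%, 29.5% and 45.1% of cells with a Ly49 name, against 22.0%, 16.3%, 20.3% and 25.2% of cells without. The direction was the same in all 4 libraries for both genes. For Klri1 the intervals of the 2 shares overlapped in the control library, and for Klri2 in the control and 24 h libraries.

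NK-gated cells with and without Klrg1 differed in the shares holding granule genes. Gzmb (granzyme B) was detected in 81.5%, 76.5%, 78.3% and 75.7% of thinned cells with Klrg1 and in 63.8%, 52.1%, 57.0% and 46.8% of those without, in the control, 12 h, 24 h and 96 h libraries. Ctsw (cathepsin W, a protease of cytotoxic cells) ran the other way: 10.5%, 11.0%, 9.71% and 26.3% of cells with Klrg1, against 30.3%, 43.9%, 32.2% and 55.6% of cells without. Klrc3 was found at like shares in both, for example 33.1% with and 33.5% without Klrg1 in the control library. Gzmb and Ctsw are both markers of the NK gate, so a cell low in Gzmb enters it more readily with Ctsw. The part of the gate in these opposite shares was not tested.

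Of the genes around the receptors, the adaptors had ratios near 1. Tyrobp, Hcst, Fcer1g and Cd247 (CD3 zeta) had 0 of 4 past 1.5-fold in NK-gated cells at each time, with ratios between 0.798 (Hcst at 96 h) and 1.06 (Tyrobp at 12 h). Of 13 proximal signalling genes, 10 were counted and 0 passed 1.5-fold at any time. Of all genes counted, 7.95%, 6.75% and 5.93% were higher and 2.92%, 4.84% and 3% lower at 12 h, 24 h and 96 h, so lists this short with 0 past the fold are near the background. The lowest ratios were those of Zap70 at 12 h (0.770), Lcp2 at 24 h (0.798) and Ptpn11 at 96 h (0.757), and the highest those of Sh2d1a (1.31), Syk (1.02) and Plcg2 (1.17). Among 8 counted ligand genes, 2 were lower at 12 h and 24 h and 1 at 96 h, beside those shares. RT1-A1, a classical class I gene in rat, was lower in every AP library, at 644, 588 and 607 CPM against 1006 in control, with ratios of 0.640, 0.585 and 0.604. Clec2d2 was also lower at 12 h (0.563) and 24 h (0.624). The highest ligand ratios were 1.22 for RT1-M3-1 at 12 h, 1.14 for RT1-CE5 at 24 h and 1.19 for RT1-S3 at 96 h.

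Among transcription factors, Eomes, which drives NK maturation, had 43 UMIs at 12 h and 7 in control (ratio 3.29, interval 1.47 to 8.66). These UMIs just reach the minimum for counting, so Eomes was counted through the 12 h library, where it was high. Its place among the higher factors can therefore lean on that minimum. Id2, needed for NK development in mouse, had ratios of 1.52 at 12 h and 1.53 at 24 h. Those 2 were the only factors of 10 counted to be at least 1.5-fold higher at 12 h, beside 7.95% of all genes, and Runx3 was the lowest there (0.747). At 24 h Irf8 alone of 9 was lower (0.642), beside 4.84% of all genes, and at 96 h Zeb2 alone was (0.654), beside 3%, while Ets1 had the highest ratio (1.13). Among 8 other NK receptors, Fcgr3a (the Fc receptor CD16) was higher at 12 h (1.69) and 24 h (1.76), Il18rap (an IL-18 receptor chain) at 12 h (1.64), and Slamf7 at 96 h (1.81), so 2, 1 and 1 of the 8 were, beside 7.95%, 6.75% and 5.93% of all genes. Cd226 was the lowest at 12 h (0.890) and at 24 h (0.626, the 1 past the fold), and Cd96 at 96 h (0.870). Eomes is one of the NK gate's markers, as are Ncr1 and Il2rb of the list of other NK receptors. Summed neutrophil markers in NK-gated cells were also highest at 12 h and 24 h, and their part in the Fcgr3a ratios was not tested.

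In T-gated cells (at least 2 UMIs over Cd3d, Cd3e and Cd3g) the receptors summed to 241, 402, 286 and 336 CPM in the control, 12 h, 24 h and 96 h libraries, from 2995, 1956, 2164 and 5360 cells. The ratios to control were 1.67 (interval 1.60 to 1.74), 1.19 and 1.39. Compared with control, 10 of 15 counted members were at least 1.5-fold higher at 12 h, beside 9.12% of all genes. At 24 h 7 of 15 were, beside 3.13%, and at 96 h 8 of 16 were, beside 2.09%. No member was at least 1.5-fold lower at any of these times, beside 2.96%, 8.86% and 4.37% of all genes. Klra22, Ly49i4, Ly49s6, Ly49s5 and Klrb1a were among the higher members at all 3 times over all T-gated cells. Klra1 had 0 UMIs in T-gated cells of the control library, against 13, 26 and 16 at 12 h, 24 h and 96 h.

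T-gated cells with at least 2 UMIs of Nkg7, a cytotoxic granule gene, were 2.80%, 11.0%, 4.67% and 5.26% of T-gated cells at 0 h, 12 h, 24 h and 96 h. Without them, the summed receptors in T-gated cells stood at 206, 148 and 207 CPM at 12 h, 24 h and 96 h, against 176 in control, with ratios of 1.17, 0.839 and 1.18. The 24 h direction thus turned when these cells were left out. The counts were smaller as well: 4 of 9 counted members were at least 1.5-fold higher at 12 h (Klrb1a, Klrc3, Klra22 and Ly49s6), beside 7.39% of all genes. At 24 h Klra22 alone of 9 was higher, beside 2.83%, and at 96 h 7 of 13 were, beside 1.92%. Those 7 were Klrb1a, Klre1, Klri1, Ly49s5, Klra22, Ly49s6 and Ly49i4. Of them, Ly49i4 (74 UMIs against 5), Ly49s5 (53 against 11) and Klri1 (53 against 14) were counted through the 96 h library. The minimum of 50 UMIs is taken over both libraries, so these counts can lean towards higher names. Among counted members, Klra22 alone was past the fold at all 3 times, with ratios of 5.46, 3.01 and 7.39. Ly49s5 and Ly49i4 had too few UMIs to be counted at 12 h and 24 h. Ly49i4 had 41, 40 and 74 UMIs at 12 h, 24 h and 96 h against 5 in control. Its ratios were 12.2 (interval 4.83 to 39.6), 9.02 (3.56 to 29.3) and 7.49 (3.07 to 23.8), so it too lay past 1.5-fold each time. Ly49s5 had ratios of 3.79, 1.23 and 2.44. At 24 h Ly49s6 and Klrb1a had ratios of 1.46 and 1.48. Klre1 was at least 1.5-fold lower at 24 h, with 22 UMIs against 48 in control (ratio 0.517, interval 0.297 to 0.873), beside 9.65% of all genes, and higher at 96 h, with 190 UMIs against 48. The Ly49 family sum was higher than control in both cases: its ratios were 3.70, 3.16 and 2.75 over all T-gated cells and 2.54, 1.45 and 2.20 without the cells rich in Nkg7. How much of each ratio over all T-gated cells goes with the share of Nkg7 cells was not tested otherwise.

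Within the T-gated cells with Nkg7 (84, 216, 101 and 282 cells), Klra22 stood at 40.5, 60.5, 305 and 199 CPM in the control, 12 h, 24 h and 96 h libraries and was detected in 8.33%, 13.0%, 38.6% and 35.1% of cells. The 24 h and 96 h libraries stood well above the other 2. Their ratios to control were 7.54 (interval 5.04 to 11.7) and 4.90 (interval 3.30 to 7.58), and the 12 h ratio was 1.49 (interval 0.965 to 2.39). The control value in these ratios rests on the 8.33% of 84 cells in which Klra22 was detected. These intervals take UMIs as independent, so they leave out the spread between cells. Compared with NK-gated cells of the same library, Klra22 was at 13.4 times the level at 24 h and 5.20 times at 96 h.

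Ly49i4 stood at 37.4, 89.6, 140 and 105 CPM in the same cells, with ratios of 2.40, 3.73 and 2.81, all with intervals above 1. The Ly49 family summed to 285, 411, 840 and 531 CPM, highest at 24 h, whereas in NK-gated cells the 12 h library was highest. That difference in timing was not tested. The 13 other names had ratios of 0.759, 0.881 and 0.946. Klri2 stood at 56.1, 24.0, 69.3 and 20.4 CPM, low at 12 h and 96 h.

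By count, 1 of 14 members (Ly49i4) was at least 1.5-fold higher at 12 h in the T-gated cells with Nkg7, beside 7.55% of all genes. At 24 h 4 of 14 were, all of the Ly49 family, beside 5.56%, and at 96 h 2 of 14 were (Klra22 and Ly49i4), beside 5.55%. The members at least 1.5-fold lower were Klri2 and Ly49si1 at 12 h, beside 4.86% of all genes, Klri1 at 24 h, beside 10.2%, and Klrc3 and Klri2 at 96 h, beside 6.53%. Summed neutrophil markers in these cells were 10.9, 1607, 1317 and 35.3 CPM.

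**Figure D4:**
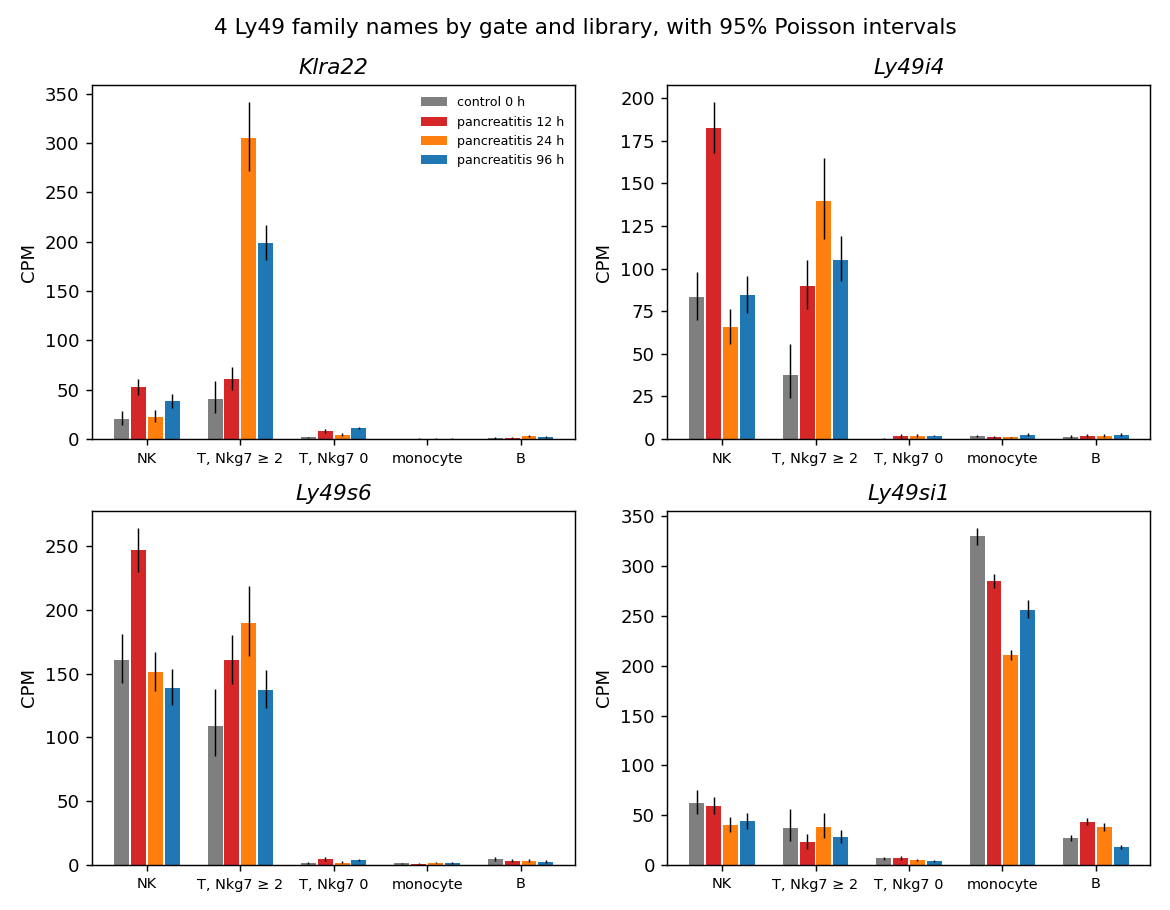
Level of 4 Ly49 family names (CPM, linear axes from 0) by gate and library, with 95% Poisson intervals. Klra22 is highest in T-gated cells with Nkg7 at 24 h (305) and 96 h (199), Ly49i4 is highest at 12 h in NK-gated cells (182), and Ly49si1 is highest in monocyte-gated cells (210 to 330).

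In T-gated cells with no UMI of Nkg7, Klrd1 was detected in 30.1%, 30.2%, 29.2% and 32.0% of cells and Klrk1 in 21.9%, 22.3%, 19.97% and 22.7%, in the control, 12 h, 24 h and 96 h libraries. In B-gated cells the same genes were found in 2.22% to 3.86% and 0.592% to 1.21%, at a median of 2777 to 3288 UMIs per cell, against 4922 to 6388 in the T-gated cells. Both were found with Cd8a or Cd8b (Klrd1 28.5% to 38.7%) and with Cd4 (18.1% to 33.7%). Klrb1c divided these cells, with 11.5% to 16.2% of the Cd8 cells against 0% to 0.673% of the Cd4 cells.

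**Figure D5:**
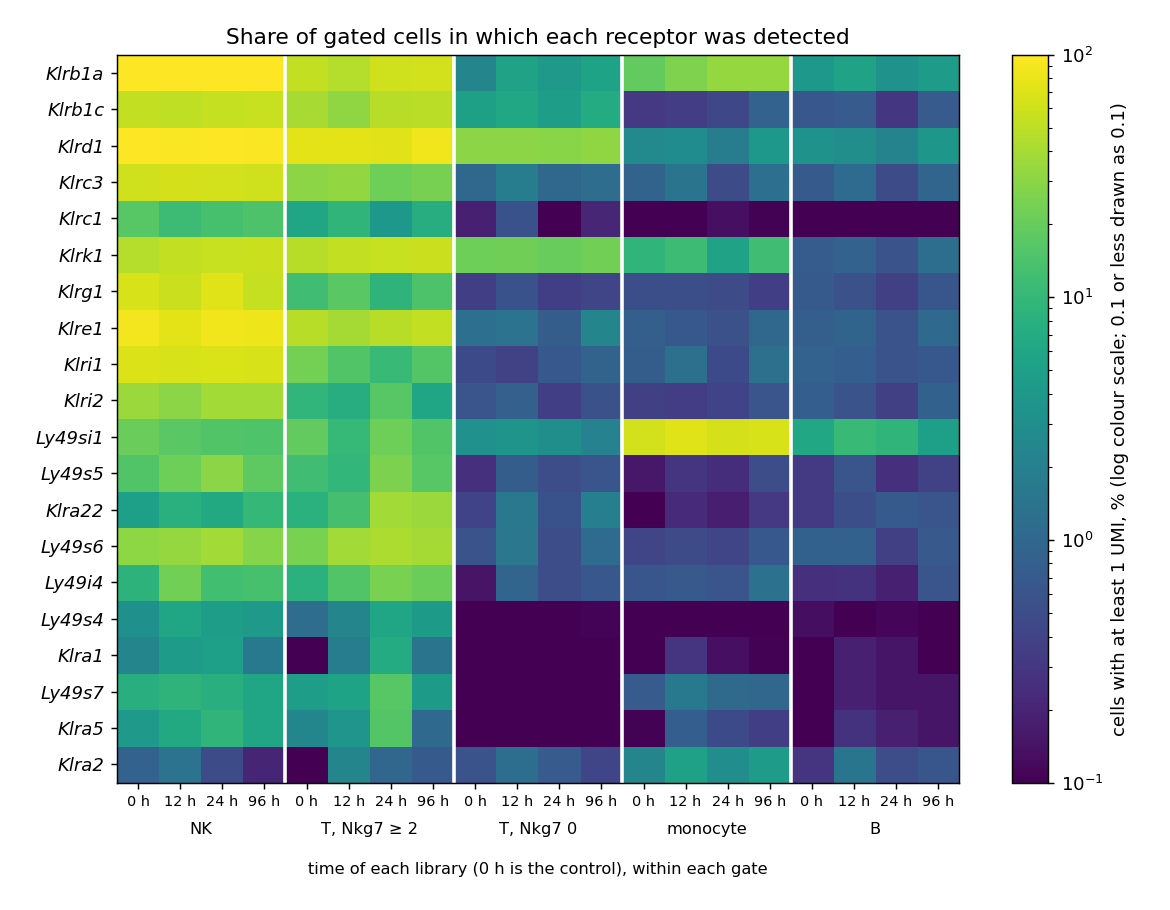
Share of cells with at least 1 UMI of each receptor (colour, log scale) in 5 gates, with 4 libraries in each by time. The rows of Klrb1a and Klrd1 are brightest in NK-gated cells (97.0% or more), Ly49si1 is bright in monocyte-gated cells (62.5% to 71.0%), and most rows are dark in B-gated cells.

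Monocyte-gated cells (at least 3 UMIs over Csf1r, Cd68 and Fn1) held 1 member above all others. Ly49si1 stood at 330, 285, 210 and 256 CPM in 62.5%, 71.0%, 63.5% and 65.5% of these cells in the control, 12 h, 24 h and 96 h libraries. That was 4.81 to 5.84 times its level in NK-gated cells of the same library. B-gated cells held 26.9, 43.3, 37.7 and 17.5 CPM of it. The 24 h ratio was 0.638 (interval 0.616 to 0.661), but the subsets of monocyte-gated cells differed in direction: Ly49si1 had 131 CPM at 24 h against 301 in control in cells with at least 3 UMIs of Fn1, and 421 against 363 in cells with none.

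Klrk1 stood at 24.6, 24.9, 7.89 and 22.0 CPM in monocyte-gated cells, with a low value in the 24 h library alone (ratio 0.320, interval 0.274 to 0.374). It was low in both subsets at 24 h: 8.80 CPM against 34.9 in control with Fn1 and 4.46 against 17.2 without. Klrb1a stood at 75.5, 90.2, 88.3 and 103 CPM, while Nkg7, an NK and T-cell gene, stood at 13.3, 25.4, 14.1 and 15.3. Klra2, which encodes Ly49B of myeloid cells in mouse, stood at 7.31, 12.0, 4.76 and 10.5 CPM in monocyte-gated cells and was found in 0.205% to 1.37% of NK-gated cells.

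At 24 h, 8 of 13 counted members were at least 1.5-fold lower than control in monocyte-gated cells, beside 14.5% of all genes, and 0 were higher, beside 6.99%. At 12 h Ly49s7 and Klra2 were higher, as 2 of 10, beside 12.3%, and Klre1 was lower, beside 8.17%. At 96 h Klri1 and Ly49i4 were higher, beside 5.13%, and 0 were lower, beside 5.38%. Apart from Ly49si1, Klrb1a and Klrk1, every member stood at 12.0 CPM (Klra2 at 12 h) or less in monocyte-gated cells, so most of these counts rest on few UMIs.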

How the data were processed

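Single-cell 5′ libraries of blood mononuclear cells were deposited as matrices of UMI counts per gene and cell. Per the submitters' processing notes, the authors used Cell Ranger and Seurat (no version stated) with mm10. As deposited, the lowest number of genes in a cell was 301, the highest mitochondrial share was 14.99%, and there were 60515205 to 79516878 UMIs per library.

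The cell filter asked for 200 genes or more and a mitochondrial share of 10% or less, and cells marked as doublets by Scrublet (in scanpy 1.11.5, 4.07% to 5.49% per library) were removed. Cells were gated in UMIs per cell. NK-gated cells needed an NK marker sum of at least 3, Ncr1 or at least 2 UMIs of Nkg7, no Cd3d, Cd3e or Cd3g, and at most 1 UMI each of B-cell and monocyte markers. T-gated cells needed at least 2 UMIs of Cd3d, Cd3e and Cd3g, and monocyte-gated and B-gated cells at least 3 UMIs of their markers, with at most 1 of other lineages. The B-cell marker sum included Cd79b and Ms4a1, and 1 further marker is not reported here. Counts were summed per library and gate and divided by the gate's total to give CPM (counts per 1000000). Intervals are 95%: exact Poisson for levels, Clopper-Pearson for shares and exact conditional binomial for ratios (scipy 1.17.1). The ratio calculation was run on simulated independent counts. These hold no spread between cells or libraries, so the run cannot speak to that spread. A member was counted where both libraries together held at least 50 UMIs, and past the fold at 1.5. A gene can thus be counted through the library where it is high, and the same minimum was used for all genes. Each cell was thinned to 2000 UMIs for the shares stated as thinned. The other shares use all UMIs and were not evened out for depth.

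Every member with at least 50 UMIs in NK-gated or T-gated cells was named, and of each list of other genes those at both ends of the ratios. The members, lists, gates and splits were chosen with earlier results of these data known. Of the listed genes, 9 were not among the file's names. Alternatives were a required Ncr1 UMI, a lower T gate, other cell filters, doublets kept, 2 scalings, thinning, a lower UMI minimum and a 2-fold threshold.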

Additional observations from a re-analysis of the deposited data

Results flagged for a closer look

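Klre1, which forms heterodimers with Klri1 or Klri2 in rat, stood on opposite sides of control in the 2 lymphocyte gates at 12 h. In NK-gated cells the 12 h library was at 0.665 times the control level (367 against 552 CPM), and in T-gated cells it was at 1.99 times (17.7 against 8.91 CPM). The difference between the gates was not tested. T-gated cells with at least 2 UMIs of Nkg7, which made up 11.0% of T-gated cells at 12 h against 2.80% in control, had a Klre1 ratio of 0.678. In the T-gated cells left without them the ratio was 1.24 (interval 0.795 to 1.93), and neither part of the T-gated cells was at least 1.5-fold higher at 12 h.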

How the results depend on the processing

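The NK sum kept its direction under every alternative run, and moved beyond its counting interval once, to 1.01 at 12 h with median-of-ratios scaling. The Ly49 family sum at 12 h lay between 1.55 (Ncr1 required) and 1.76 (no cell filter). More of the T sum's values moved. At 12 h it was 1.53 after thinning, 1.54 with median of ratios and 1.17 without the cells holding at least 2 UMIs of Nkg7. At 24 h it was 1.07 with a T gate of 1 UMI, 1.30 with median of ratios and 1.06 as a mean over cells, and it turned to 0.957 after thinning and to 0.839 without the Nkg7 cells. At 96 h it was 1.23 with a T gate of 1 UMI, 1.33 as a mean over cells and 1.18 without the Nkg7 cells. Median of ratios shifted T-gated cells by -0.11 (12 h) and 0.14 (24 h) on the log2 scale. The counts of T members at least 1.5-fold higher were 4 at 12 h (10 over all T-gated cells) and 1 at 24 h (7) without the Nkg7 cells, and the count lower at 24 h was 1 (0). The causes were not tested.

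Of the counts in NK-gated cells, those higher at 12 h (8) were 4 at 2-fold and 5 with Ncr1 required; at 24 h (3), 1, 1 and, thinned, 0; at 96 h (1), 0 at 2-fold. Those lower at 12 h (1) were 0 at 2-fold, without a cell filter, with cells of at least 2000 UMIs and thinned; at 24 h (2), 0 at 2-fold and 1 with Ncr1 required, thinned or without a cell filter; at 96 h (0), 2 with Ncr1 required and 1 thinned or as a mean over cells. The share of all genes past the fold is not given for these NK alternatives, so these counts are not set against it. Of 399 ratios of single members under alternatives, 372 kept their direction and 0 reversed a ratio past the fold. By size, 380 were labelled the same and 19 as moved. No paired analysis was possible because each time has 1 library. With 4 libraries and no replicates, a difference between animals and one between times cannot be told apart.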

Other observations

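Ligand genes were also counted outside NK-gated cells, where the receptors' partners would be seen. In monocyte-gated cells, 4 of 9 counted ligand genes were at least 1.5-fold lower than control at 12 h (Clec2l, RT1-CE5, RT1-A1 and RT1-A2), 5 of 9 at 24 h (Clec2d2, RT1-A1, RT1-A2, RT1-S3 and RT1-M3-1) and 2 of 8 at 96 h (RT1-CE5 and RT1-A1), and 0 were higher. Of all genes counted there, 8.17%, 14.5% and 5.38% were lower. RT1-A1 was thus lower in monocyte-gated cells of every AP library, as in NK-gated cells. In T-gated cells RT1-A1 was lower at 12 h and 24 h and no counted ligand passed the fold at 96 h. All AP libraries are set against the same control library.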
